A study of Mus musculus with 6 samples.

Results

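The core kinase cascade of the Hippo pathway was followed in whole retina through 10 genes, chosen by name: Taok1, Taok2 and Taok3 (the TAO kinases), Stk3 and Stk4 (the kinases MST2 and MST1), Sav1 (their scaffold), Lats1 and Lats2 (the kinases they act on) and Mob1a and Mob1b (LATS adaptors). All 10 were among the 24062 genes of the count table and all 10 passed the filter on low counts that left 13905. RNA was sequenced from retinas of C57Bl6/J wild-type mice (WT) and of rd10 mice, labelled as the same strain, at postnatal day 30. The groups held 3 libraries each, every one made from 2 frozen retinas. The rd10 line carries a missense change in Pde6b, the gene of a rod phosphodiesterase subunit, and its rods degenerate. Levels are given as CPM, counts relative to the library's size scaled by its TMM factor from edgeR. Pde6b had 3231 ± 221 CPM in WT and 758 ± 216 in rd10 (SD, n = 3), but the count of a missense allele does not check the label. Whole retina holds rods, cones, inner neurons, Müller glia, microglia and vessels, so fewer cells of a type and less RNA per cell cannot be told apart. Nothing in the labels says that the samples of a group were different animals, and p-values then measure only how these samples spread, which may be technical.

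In the Hippo pathway, TAO kinases can switch on the MST kinases, which with the scaffold SAV1 phosphorylate the LATS kinases and their MOB1 adaptors. Active LATS phosphorylates the coactivators YAP and TAZ, which then stay out of the nucleus and leave the TEAD transcription factors without a partner. The cascade acts through phosphorylation, and transcript counts do not measure kinase activity. The study's title places its question in YAP and TEAD of reactive Müller cells, which makes the transcript levels of the kinases upstream of YAP the matter compared here.

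Library totals lay between 13573035 and 15818918 counts in WT and between 10923556 and 12171088 in rd10. The 15 rod marker genes were all lower in rd10 by edgeR's quasi-likelihood test (adjusted p under 0.05), with a summed level of 110814 to 130595 CPM in WT libraries and 22715 to 33062 in rd10 libraries. The tissue label was met by these rod genes, by 12 of 12 bipolar and 12 of 12 amacrine marker genes above the filter, and by lens and blood lists near 0 (at most 17.0 and 4.39 CPM in any library).

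Of the cascade genes, Taok3 fell in rd10 and the other 9 did not pass the test. Taok3 was at 51.3% of its WT level, while the fitted log2 fold changes of the others lay between -0.66 (Taok1) and -0.04 (Stk3). That is 1 of 10 members called (10%), against 14.4% of all tested genes, of which 7.32% were lower and 7.12% higher. The unadjusted p was under 0.05 for 2 members (Taok3 and Taok1), or 20%, against 30.1% of all genes. Libraries of one group lay wholly below the other for Taok3 and Mob1b, again 20%, whereas the groups did not overlap for 35.7% of all genes. With these factors all 10 fitted values were negative, with a median of -0.29 beside -0.04 over all tested genes. Without the library WT-23 the median of the members was -0.08, and Stk3, Stk4, Lats2 and Sav1 had positive values.

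**Figure D1:**
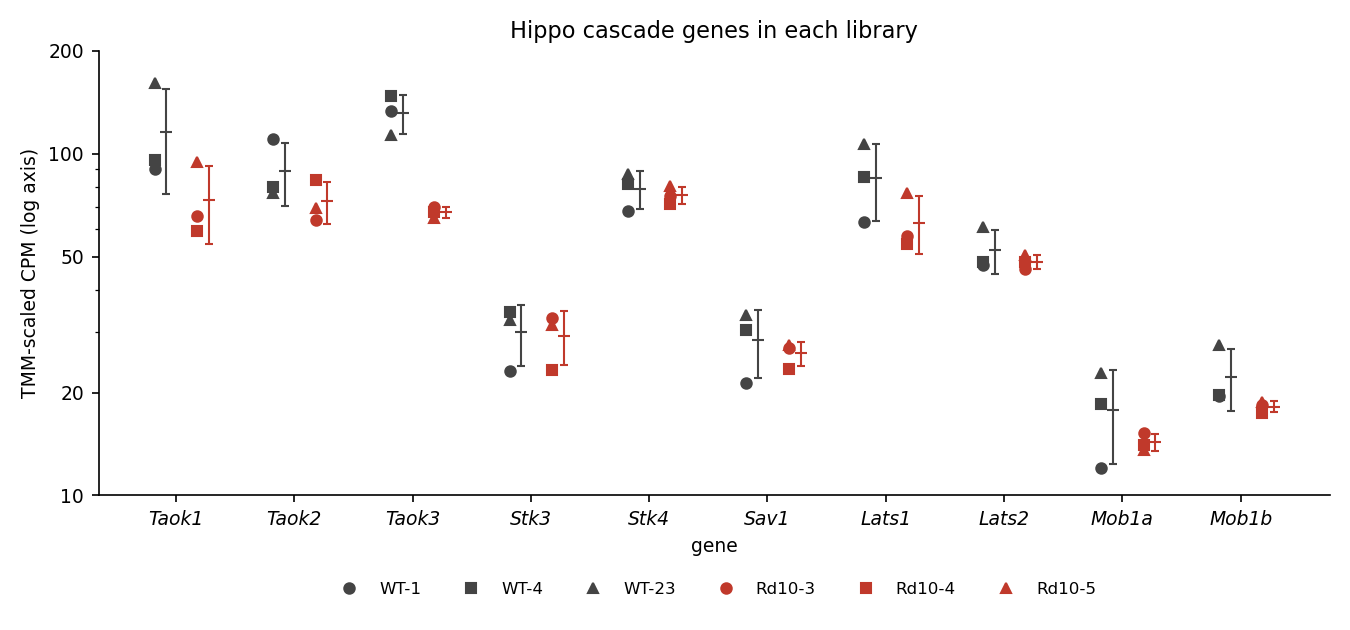
TMM-scaled CPM of the 10 cascade genes on a log axis, with 1 marker per library (grey WT, red rd10) and the mean and SD of 3 libraries beside them. Taok3 shows 3 rd10 libraries between 64.7 and 69.6 CPM, all below the WT libraries at 113 to 147 CPM.

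Taok3 encodes a TAO kinase and lies on chromosome 5 from 117120129 to 117275219 on the plus strand (GENCODE M21, GRCm38). The 3 WT libraries WT-1, WT-4 and WT-23 had 133, 147 and 113 CPM, from 1629, 2113 and 1670 counts. The rd10 libraries Rd10-3, Rd10-4 and Rd10-5 had 69.6, 67.5 and 64.7 CPM, from 907, 792 and 851 counts. Every rd10 library was thus under every WT library, and the rd10 libraries were close together. The means were 131 ± 17 in WT and 67.3 ± 2.4 in rd10 (SD, n = 3 per group), and the fitted log2 difference was -0.96 ± 0.13 (SE, with edgeR's adjusted p = 0.00238 and a 95% interval of -1.26 to -0.67). Taok3 passed under all 15 alternative settings run, with values from -1.20 to -0.72 and adjusted p from 2.393e-08 to 0.0184. The authors' deposited table of selected genes, from these same samples, lists Taok3 with a log2 fold change of -0.96, a p of 1.25e-09 and FPKM of 10.6 in WT and 5.4 in rd10. The unadjusted edgeR p here was 6.203e-05. The fall stood beside the lower rod marker genes, beside 14 of 14 higher microglial markers (summed level 102 to 117 CPM in WT and 341 to 459 in rd10) and 9 of 12 higher Müller markers (7177 to 8195 and 11535 to 14196 CPM). The part of these cell types in the fall of Taok3 was not tested.

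Taok1, which encodes a second TAO kinase, lies on chromosome 11 from 77529162 to 77607815 on the minus strand. WT-1 and WT-4 had 89.9 and 95.9 CPM and WT-23 had 161. Rd10-3, Rd10-4 and Rd10-5 had 65.9, 59.3 and 94.6 CPM. Rd10-5 therefore lay among the lower WT libraries, and WT-23 stood well above every other library. On the log2 scale rd10 differed from WT by -0.66 ± 0.26 (SE, edgeR adjusted p = 0.134), with a 95% interval from -1.26 to -0.06 before adjustment for the number of genes. The authors' deposited table of selected genes, from these same samples, lists Taok1 with -0.66, a p of 0.0175 and FPKM of 26.2 and 16.6, and places its end at 77585506. That p is headed only as a p-value, and the unadjusted edgeR p here was 0.0354. Exons of Abhd15, on the opposite strand, overlap those of Taok1, and no source used here states whether counting used the strand. Abhd15 had 2 to 21 counts in any library.

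Taok2, the other TAO kinase gene, lies on chromosome 7 from 126865678 to 126884703 on the minus strand. Its WT libraries had 110, 79.7 and 76.9 CPM (WT-1, WT-4 and WT-23) and its rd10 libraries 64.2, 84.0 and 69.4 (Rd10-3, Rd10-4 and Rd10-5). Here WT-1 was the high library, not WT-23 as for Taok1, and Rd10-4 overlapped the WT range. The fold change of Taok2 was -0.29 ± 0.17 on the log2 scale (edgeR adjusted p = 0.297, 95% interval -0.70 to 0.11).

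Of the TAO genes, Taok3 was called and the others were not, so the 250 bases before each of their RefSeq starts (GRCm38.p6) are shown to compare these promoters, 5′ to 3′ on the gene's strand. They lie at chr5:117119879-117120128 (Taok3, plus strand), chr11:77607816-77608065 (Taok1, minus strand) and chr7:126884968-126885217 (Taok2, minus strand).
Taok3: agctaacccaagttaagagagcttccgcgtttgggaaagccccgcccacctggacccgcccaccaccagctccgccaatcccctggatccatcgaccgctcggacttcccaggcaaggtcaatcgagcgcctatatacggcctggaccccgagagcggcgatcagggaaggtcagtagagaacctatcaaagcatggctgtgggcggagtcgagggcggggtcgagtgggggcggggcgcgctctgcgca
Taok1: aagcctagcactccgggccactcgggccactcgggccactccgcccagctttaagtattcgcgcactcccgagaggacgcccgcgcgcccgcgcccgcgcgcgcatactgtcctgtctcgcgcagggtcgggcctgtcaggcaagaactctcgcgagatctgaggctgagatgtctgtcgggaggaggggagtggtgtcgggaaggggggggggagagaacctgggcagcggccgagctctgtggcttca
Taok2: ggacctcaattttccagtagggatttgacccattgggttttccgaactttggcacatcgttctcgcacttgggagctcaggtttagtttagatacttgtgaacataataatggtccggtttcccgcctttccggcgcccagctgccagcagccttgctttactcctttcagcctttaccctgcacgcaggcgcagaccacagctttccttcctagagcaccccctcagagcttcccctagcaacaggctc
The sequences were searched on both strands for GGAATG, the core that TEAD factors bind, and TAATCC, the core that the photoreceptor factors CRX and OTX2 bind. These motifs do not overlap each other, a match would stand in capitals, and none of the 3 sequences holds either. Of 32851 RefSeq promoter windows of this length, 12.6% hold GGAATG and 6.25% hold TAATCC. The Taok3 window has 22 CpG dinucleotides and a GC content of 64.4%, the Taok1 window 26 and 68.4%, and the Taok2 window 9 and 53.2%, against medians of 6 and 52.4% over all windows. Among the other members with an entry, GGAATG occurred once in the windows of Sav1 and Mob1a and TAATCC once in that of Mob1b. The table holds no entry for Stk3.

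Stk4 and Stk3, the MST kinase genes, had the fold changes nearest to 0. Stk4 (chromosome 2, 164070322 to 164155524, plus strand) had 68.1, 81.4 and 87.5 CPM in WT-1, WT-4 and WT-23 and 75.1, 71.3 and 80.3 in Rd10-3, Rd10-4 and Rd10-5. All 3 rd10 libraries lay within the WT range. Its log2 fold change was -0.06 ± 0.13 (edgeR adjusted p = 0.778, 95% interval -0.36 to 0.23). Stk3 (chromosome 15, 34875496 to 35178921, minus strand) had WT values of 23.1, 34.5 and 32.6 CPM and rd10 values of 33.2, 23.3 and 31.5, with libraries in the same order. Again the rd10 values fell inside the WT range, with 1 low library in each group (WT-1 and Rd10-4). The fold change of Stk3 was -0.04 ± 0.20 (edgeR adjusted p = 0.918, 95% interval -0.50 to 0.42).

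Sav1, the gene of the WW domain scaffold that joins MST to LATS, lies on chromosome 12 from 69965012 to 69987002 on the minus strand. It had 21.3, 30.4 and 33.8 CPM in WT-1, WT-4 and WT-23 and 27.1, 23.5 and 27.5 CPM in the rd10 libraries. The rd10 libraries of Sav1 lay between the lowest and the middle WT library. Its log2 fold change was -0.13 ± 0.18 (edgeR adjusted p = 0.675, 95% interval -0.56 to 0.29). Exons of Atl1, on the opposite strand, overlap those of Sav1. Atl1 was at 40.0 ± 3.2 CPM in WT and 46.5 ± 2.4 in rd10 (SD, n = 3 per group). The means of Sav1 were lower, at 28.5 ± 6.4 and 26.0 ± 2.2 CPM. The values of Sav1 are therefore uncertain if strand was not used.

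Lats1, a kinase gene that acts directly on YAP, lies on chromosome 10 from 7681214 to 7716460 on the plus strand. WT-1, WT-4 and WT-23 had 63.3, 85.3 and 107 CPM. Rd10-3, Rd10-4 and Rd10-5 had 57.4, 54.5 and 76.7 CPM, of which Rd10-5 lay above WT-1. The log2 fold change of -0.44 ± 0.21 did not pass (edgeR adjusted p = 0.21), with a 95% interval from -0.93 to 0.05. Lats2, its paralog and itself a known target of YAP, lies on chromosome 14 from 57689662 to 57758388 on the minus strand. The Lats2 libraries had 47.2, 48.3 and 61.0 CPM in WT and 46.1, 48.3 and 50.4 in rd10, so that the groups overlapped and WT-23 alone stood high. Lats2 had a log2 fold change of -0.11 ± 0.14 (edgeR adjusted p = 0.624, 95% interval -0.43 to 0.20). Exons of Gm49361, a protein-coding gene on the same strand, overlap those of Lats2. Gm49361 is absent from the count table, and its effect on the counts of Lats2 was not tested.

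The MOB1 adaptor genes were the least abundant members. Mob1a (chromosome 6, 83326016 to 83343776, plus strand) had 12, 18.5 and 22.9 CPM in WT-1, WT-4 and WT-23 and 15.3, 14.1 and 13.6 in the rd10 libraries. Mob1b (chromosome 5, 88720855 to 88764220, plus strand) had 19.5, 19.6 and 27.6 CPM in WT and 18.3, 17.5 and 18.8 in rd10. For Mob1a the WT libraries spread on either side of the rd10 libraries, whereas every rd10 library of Mob1b was under every WT library by a narrow gap. The log2 fold changes were -0.32 ± 0.23 for Mob1a and -0.29 ± 0.17 for Mob1b (edgeR adjusted p = 0.394 and 0.287, 95% intervals -0.84 to 0.21 and -0.68 to 0.10).

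**Figure D2:**
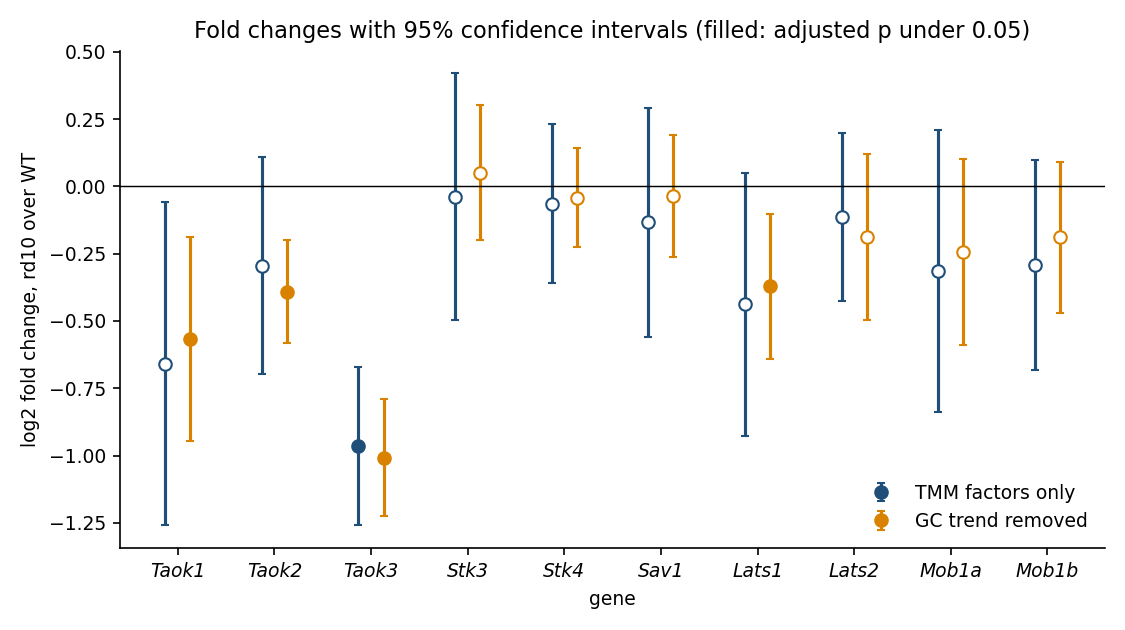
Log2 fold change of rd10 over WT with 95% confidence intervals for the 10 genes, with TMM factors only (blue) and with the GC trend of each library removed (orange), filled where the adjusted p is under 0.05. Taok3 is filled in both, and Taok1, Taok2 and Lats1 only once the trend is removed.

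The difference between the libraries WT-1 and WT-23 went with base composition. This pair was furthest apart of all pairs within a group (chi-square per degree of freedom 57.8, against 7.36 to 22.1 for the other 5 pairs), and was compared after this was seen. From WT-1 to WT-23, Mob1a, Taok1, Lats1 and Sav1, whose longest transcripts have a GC content of 40.0% to 43.5%, were 1.90, 1.79, 1.69 and 1.58 times as high. Mob1b and Stk3, with the lowest GC content at 37.9% and 38.4%, were each 1.41 times as high, and Stk4, at 46.8%, was 1.28 times as high. Taok2 and Taok3, at 57% and 51.0% GC, were 0.698 and 0.850 times as high. Lats2, at 52.2% GC, went with the first genes at 1.29 times. Across the 10 members, GC content and the log2 ratio of these libraries had a Pearson r of -0.78 (Spearman rho -0.56), and over the 10898 genes that averaged 5 CPM or more same r of -0.78. Both are descriptions over genes of the same pair of libraries. Across members, GC content and the fold change of rd10 over WT had a Pearson r of -0.17.

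**Figure D3:**
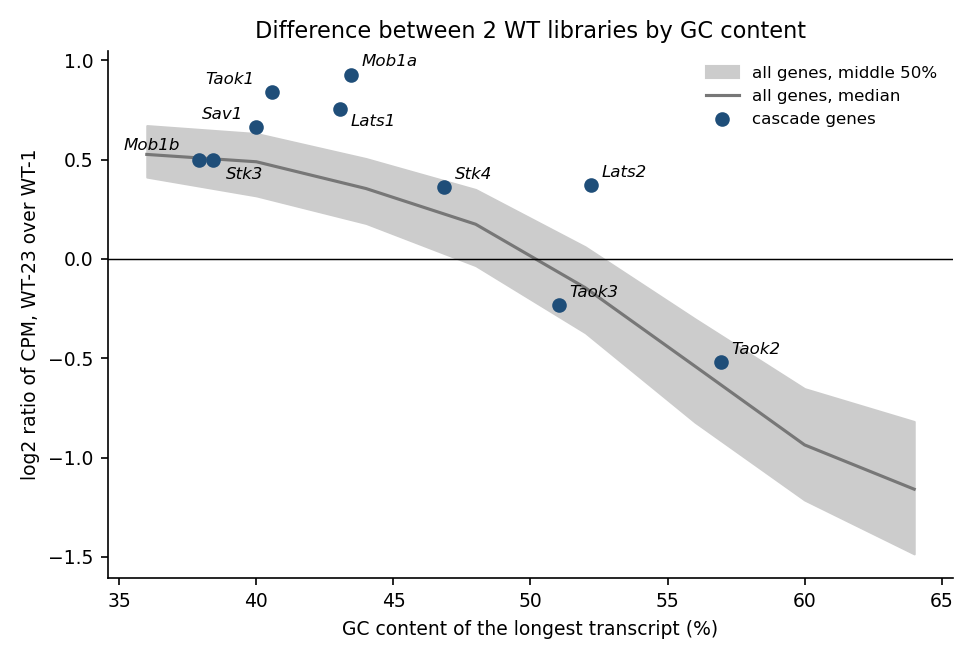
Log2 ratio of CPM between the libraries WT-23 and WT-1 against the GC content of the longest transcript, for the 10 cascade genes (points) and all genes that averaged 5 CPM or more (line, median per bin of GC content; band, middle 50%). Taok1 at 0.84 and Taok2 at -0.52 lie on opposite sides of 0, each on the same side of 0 as the median of all genes at their GC content.

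With a smooth trend on GC content removed from each library, 4 of the 10 members were lower in rd10 and none higher. These were the 3 TAO kinase genes and Lats1, or 40%, against 33% of all genes called in that fit and 18.6% called lower. Taok2 then had 88.3, 86.3 and 98.9 CPM in WT and 66.7, 68.5 and 73.4 in rd10, groups that no longer overlapped, with a log2 fold change of -0.39 ± 0.09 (edgeR adjusted p = 0.00626). For Taok1 the values were 103, 92.1 and 135 against 65.2, 68.4 and 89.5 CPM, also apart, with -0.57 ± 0.17 (adjusted p = 0.0303). Lats1 kept an overlap, since Rd10-5 at 73.2 exceeded WT-1 at 71.1 CPM, and had -0.37 ± 0.12 (adjusted p = 0.0375). Taok3 had -1.01 ± 0.10 (edgeR adjusted p = 3.093e-05) and stayed apart. Mob1b, whose groups were apart before, then overlapped, with 18.5 to 22.9 CPM in WT and 17.6 to 20.8 in rd10. In all 3 of the 10 members were apart, against 2 before. The share of all genes apart was not counted with the trend removed, and was 35.7% with TMM factors only. The SD among WT libraries was smaller than before for 9 of the 10 genes, the exception being Lats2, and the SD among rd10 libraries for 6 of the 10, not for Taok3, Lats2, Mob1a and Mob1b. The trend of a library also takes up any difference between the groups that goes with GC content, so these values are not a plain correction of the replicate spread.

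Calls beyond Taok3 came and went with the library left out and with the scaling. Without WT-1, Lats1, Mob1a and Taok1 passed as well as Taok3 (-0.61, -0.53 and -0.81, edgeR adjusted p = 0.0292, 0.0454 and 0.0364), 4 of 10 against 22.8% of all genes in that fit. Without WT-23 the values were -0.32 for Taok1, -0.22 for Lats1, -0.077 for Mob1a and -0.086 for Mob1b, and without WT-1 that of Taok2 was -0.11. Over all 15 alternatives, adjusted p ran from 0.0292 to 0.548 for Lats1, from 0.0454 to 0.848 for Mob1a, from 0.0303 to 0.345 for Taok1 and from 0.00626 to 0.85 for Taok2. When libraries were scaled on marker genes of inner neurons (bipolar, amacrine and ganglion cells), here inner neuron scaling, Taok2 passed beside Taok3 (-0.52, edgeR adjusted p = 0.0445), 2 of 10 against 22% of all genes. Library size alone moved the median of all genes by 0.24 and inner neuron scaling by -0.24. Of all calls, 49.3% were higher with TMM factors, 81.2% with library size alone, 63.3% with upper quartile factors and 20.9% with inner neuron scaling.

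Whether the mix of related genes differed was asked through 6 ratios within each library, which do not depend on the scaling factor. Taok2 over Taok3 was the ratio that separated the groups. Its log2 values were -0.27, -0.89 and -0.56 in WT-1, WT-4 and WT-23 and -0.12, 0.32 and 0.10 in Rd10-3, Rd10-4 and Rd10-5, so that every rd10 library was above every WT library. The difference was 0.67 ± 0.22 (SE, n = 3 per group; two-sided exact permutation p = 0.1, the smallest that 3 against 3 allows, or 0.6 adjusted over the 6 ratios). With the GC trend removed, chosen after seeing the data, it was 0.61 ± 0.17 and the groups stayed apart. Taok1 over Taok3 lay between -0.62 and 0.51 in WT libraries, overlapped the rd10 values of -0.19 to 0.55, and differed by 0.32 ± 0.43 (exact permutation p = 0.5, adjusted 0.75). Taok1 over Taok2 differed by -0.35 ± 0.48 (exact permutation p = 0.5, adjusted 0.75) and spread widely among the WT libraries alone, from -0.29 in WT-1 to 1.06 in WT-23.

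The ratios of the MST, MOB1 and LATS pairs overlapped between groups. Stk3 over Stk4 averaged -1.41 ± 0.16 in WT and -1.38 ± 0.22 in rd10 (SD, n = 3), a difference of 0.02 ± 0.16 (SE; exact permutation p = 0.8, adjusted 0.9). For the MOB1 pair, Mob1a over Mob1b averaged -0.35 in both groups (SD 0.31 in WT and 0.10 in rd10) with a difference of 0.01 ± 0.19 (exact permutation p = 0.9, adjusted 0.9). Lats1 over Lats2 averaged 0.68 ± 0.23 in WT and 0.37 ± 0.22 in rd10, a difference of -0.32 ± 0.18 with overlapping libraries (exact permutation p = 0.2, adjusted 0.6). No window of 50 bases was shared between the annotated transcripts of any of these 6 pairs, so reads of that length would not be split between them.

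**Figure D4:**
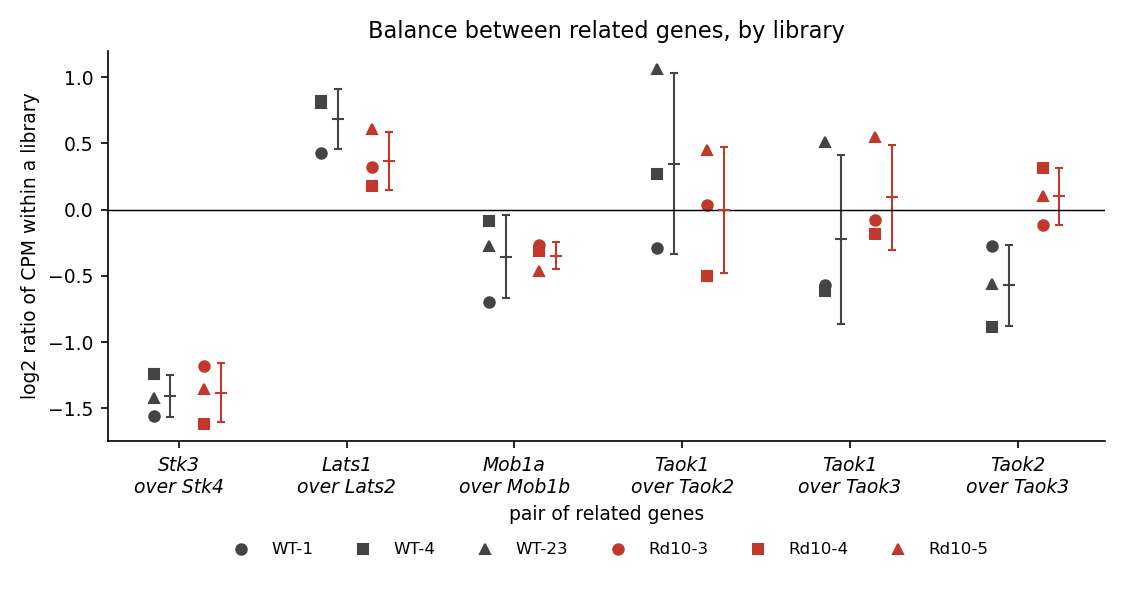
Log2 ratio of CPM between related genes within each library, with 1 marker per library (grey WT, red rd10) and the mean and SD of 3 libraries beside them. Taok2 over Taok3 is the pair whose groups do not overlap, and the ratios with Taok1 spread most among WT libraries.

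Levels of different members were compared per kilobase of exon (CPM per kb of the union of annotated exons). In WT, Stk4 had the highest mean at 13.5 ± 1.7, followed by Taok3 at 11.8 ± 1.5, Lats1 at 11.7 ± 3.0, Taok2 at 9.55 ± 1.98, Taok1 at 9.30 ± 3.17 and Lats2 at 7.48 ± 1.10 (SD, n = 3). Sav1 at 5.42 ± 1.22, Stk3 at 4.92 ± 0.99, Mob1a at 3.71 ± 1.14 and Mob1b at 1.48 ± 0.31 followed. Between neighbours in this order the WT libraries were apart for Lats2 over Sav1 and for Mob1a over Mob1b, and overlapped elsewhere. In rd10, Stk4 stood first at 12.9 ± 0.8 and apart from Lats1 at 8.62 ± 1.65, while Taok3 ranked 5 at 6.03 ± 0.22, under Taok2 (7.78 ± 1.10) and Lats2 (6.92 ± 0.31). The order depended on the length used. With the longest transcript, which for Taok3 has 4467 bases against 11159 in the union, Taok3 was first in both groups at 29.4 ± 3.8 and 15.1 ± 0.5 CPM per kb, apart from Taok2 in WT but overlapping it in rd10 (14.5 ± 2.1). In the authors' deposited table, by contrast, Taok1 has a higher FPKM than Taok3. Mob1b was last with either length.

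Around the cascade, genes of upstream membrane proteins and scaffolds moved in both directions. Of 22 tested genes of that list, rd10 had 4 higher and 3 lower, and the median log2 value over the list was 0.24. Over all tested genes 7.12% were higher and 7.32% lower. Groups were apart for 15 of the 22, against 35.7% of all genes. Over the 4 lists of pathway genes outside the cascade, 8 of 62 tested genes were called (12.9%), against 14.4% of all genes. Of these calls, 4 higher and 3 lower came from the 22 upstream genes. The lists were chosen with earlier results of these data known, so no conclusion is drawn from how calls divide between them. Fat1, a giant cadherin gene, rose by 1.08 ± 0.13 on the log2 scale (SE, edgeR adjusted p = 0.0014), with 22 ± 1.7 CPM in WT against 46.5 ± 3.0 in rd10 (SD, n = 3). Rassf4, of the RASSF family whose SARAH domain can bind MST kinases, rose by 0.93 ± 0.12, from 52.1 ± 4.5 to 99.4 ± 6.3 CPM (edgeR adjusted p = 0.00204). Amot and Amotl1, genes of angiomotins that bind YAP, rose by 0.66 ± 0.15 and 0.47 ± 0.11 (edgeR adjusted p = 0.0258 and 0.0298), and each held in 10 of 15 alternatives. Crb2 and Crb1, genes of apical crumbs proteins, fell by 1.16 ± 0.18 and 0.53 ± 0.15 (edgeR adjusted p = 0.00491 and 0.0462). Crb1, named to complete the count, passed in 5 of 15 alternatives. Wwc2, a KIBRA relative, went from 107 ± 10 to 59.0 ± 9.5 CPM and fell by 0.86 ± 0.15 (edgeR adjusted p = 0.00747).

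Among 14 tested kinases and MOB proteins related to the members, Map4k3 fell and the other 13 did not pass, where 14.4% of all genes were called. Map4k3 encodes a kinase of the MAP4K family, which can act on LATS beside MST, and fell by 1.15 ± 0.15 (edgeR adjusted p = 0.00241), having 134 ± 21 CPM in WT and 60.4 ± 7.2 in rd10 (SD, n = 3). It passed in all 15 alternatives, as did Fat1, Rassf4, Crb2 and Wwc2. These calls stood beside the same rod, Müller and microglial marker differences as Taok3, whose part in them was not tested. None of 19 tested cascade inhibitors, among them the phosphatase complex STRIPAK and LIM proteins that bind LATS, passed by edgeR. Their log2 fold changes ran from -0.25 to 0.85 with a median of -0.01. Groups were apart for 3 of the 19, against 35.7% of all genes. The most abundant, the ubiquitin ligase gene Nedd4 and the phosphatase scaffold gene Ppp2r1a, had log2 fold changes of 0.04 ± 0.11 and 0.27 ± 0.13 (edgeR adjusted p = 0.826 and 0.22). Of the 7 tested effector genes none passed. The most abundant were Yap1 (0.42 ± 0.15) and Tead1 (0.22 ± 0.20, edgeR adjusted p = 0.0986 and 0.503). Groups were apart for 3 of the 7, against 35.7% of all genes. These were Yap1, Tead2 and Vgll3, each higher in rd10, and the other effector genes overlapped. Yap1 had 22.7, 24.2 and 29.9 CPM in WT-1, WT-4 and WT-23 and 33.2, 32.3 and 37.1 in Rd10-3, Rd10-4 and Rd10-5. Its unadjusted edgeR p was 0.02145.

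**Figure D5:**
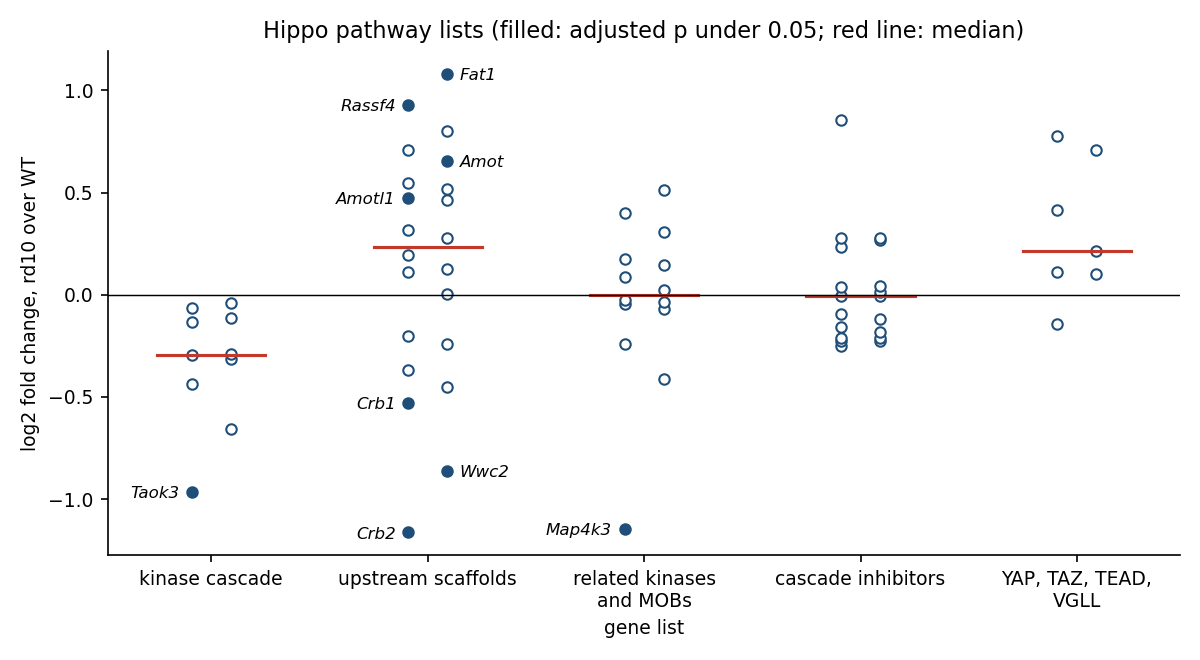
Log2 fold change of rd10 over WT for each tested gene of 5 Hippo pathway lists, filled where the adjusted p is under 0.05 and named, with the list's median as a red line. The medians are -0.29 for the kinase cascade and 0.24 for the upstream scaffolds.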

How the data were processed

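Total RNA was made into directional TruSeq libraries, per the labels' protocols. The submitters' processing notes name TopHat2 2.1.0, HTSeq, edgeR and build mm10 without roles, and no source used here names the annotation. Raw gene counts were deposited in 6 columns, whose names give the group but match no replicate number of the titles. The authors' deposited table of selected genes gives FPKM per group, log2 fold changes and p-values, used as they stand. The share of all genes that it lists was not counted, so its listing of 2 of the 10 members is no result about the members. A smaller table that lists none of them was not used.

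Genes were filtered with filterByExpr and tested over all 13905 with edgeR 4.0.16 in R 4.3.3 (TMM factors, robust quasi-likelihood fit, genotype only, Benjamini-Hochberg threshold 0.05). Ratios were compared with exact permutation tests in scipy 1.17.1. Lengths, GC content (matched for 95.7% of tested genes) and positions came from GENCODE M21, on the assembly mm10 names, and promoters from RefSeq. The GC trend was a loess fit (span 0.3) of each library's log2 deviation from the mean of all libraries. DESeq2 1.42.0, limma 3.58.1 voom, other factors and filters and omission of each library were alternatives.

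The test was also run on simulated counts for 13905 genes, of which 200 were changed. The share of changed genes found was 6.098% at 1.5-fold (82 genes), 58.93% at 2-fold (56 genes) and 96.77% at 4-fold (62 genes). All members are named; other list genes were named if called (up to 6 per list, by p) or, where none was, as the 2 most abundant. The members, lists and alternatives were chosen with earlier results of these data known.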

Additional observations from a re-analysis of the deposited data

How the results depend on the processing

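No paired analysis was possible because the numbers in the count columns match no replicate number of the samples. Called genes numbered 2008 (990 higher, 1018 lower) in all. With library size alone the numbers were 3043, 2471 and 572, with inner neuron scaling 3059, 639 and 2420, and with the GC trend removed 4587, 1999 and 2588. Leaving out each library in turn gave 885 to 3214 in all, 474 to 1553 higher and 411 to 1661 lower. The lowest number came without Rd10-3 and the highest without WT-1.

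Members called were 1, lower in rd10, against 14.4% of all genes. They were 2 with inner neuron scaling (against 22%) and 4 with the GC trend removed (against 33%). With a library left out they were 1 to 4 (the 4 without WT-1), against 6.26% to 22.8%. No setting called a member higher. With TMM factors 7.12% of all genes were called higher. Of 62 tested pathway genes outside the cascade, 8 were called (4 higher, 4 lower), or 12.9% against 14.4% of all genes. The 22 upstream genes held 4 of the higher and 3 of the lower. Library size alone called 21 with 18 higher (33.9% against 21.9%), removal of the GC trend 21 with 15 higher (33.9% against 33%), inner neuron scaling 2 higher and 7 lower (14.5% against 22%), and upper quartile factors 11 with 8 higher (17.7% against 15.5%). With a library left out they numbered 5 to 13, of which 2 to 8 were higher and 3 to 5 lower, against 6.26% to 22.8% of all genes.

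Taok3, Taok1, Taok2, Lats1, Mob1a and Mob1b had negative log2 fold changes under all 15 alternatives. Stk3 turned to 0.056, 0.20 and 0.051 with upper quartile factors, library size alone and the GC trend removed, and ran from -0.20 to 0.10 with a library left out. Stk4 turned to 0.030 and 0.17 with the first 2 of these, and ran from -0.16 to 0.034 with a library left out. With library size alone Lats2 had 0.12 and Sav1 0.10. With a library left out they ran from -0.18 to 0.035 and from -0.30 to 0.023. With library size alone and upper quartile factors every gene moves by about the shift of the median of all genes (0.24 and 0.094), which sets these turns. The cause of the turns with the GC trend removed or a library left out was not tested.

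With a library left out, the difference between groups in the log2 ratio of Stk3 over Stk4 ran from -0.0772 to 0.1416, that of Mob1a over Mob1b from -0.1663 to 0.1394, that of Taok1 over Taok2 from -0.6722 to 0.0068 and that of Taok1 over Taok3 from 0.0927 to 0.6855 (the last 2 highest without WT-23). With the GC trend removed, an alternative chosen after seeing the data, Mob1a over Mob1b had -0.0344. With the longest transcript, the CPM per kb in WT and rd10 were 9.13 and 8.90 for Stk3, 10.05 and 9.29 for Lats2, 8.49 and 7.75 for Sav1, 2.48 and 2.03 for Mob1b, 17.8 and 14.5 for Taok2 and 29.4 and 15.1 for Taok3. For Stk4 they were 15.1 and 14.4 and for Mob1a 4.03 and 3.24. The length changes both groups of a gene by the same factor. In the simulation few changes of 1.5-fold were recovered, but 200 of 13905 genes were changed there. In these data 2008 of 13905 were called, so the recovered shares need not hold for the members.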
